A study of Zea mays with 68 samples.

Results

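Mature female spikelets of the maize inbred line B73 were compared with the stem of the same line, to set a floral organ against a vegetative axis with no meristem sample in between. The comparison used 9 of the 68 RNA-seq samples of a tissue atlas, namely 3 libraries of mature female spikelets, 3 of internode 6-7 and 3 of internode 7-8, with the 6 internode libraries treated as 1 stem group. Spikelets are the flower-bearing units of the ear, in which glumes and floral organs enclose the ovary that carries the silk. An internode is the stem segment between neighbouring leaf nodes. All 9 libraries carry the genotype B73, and the labels give no treatment, age, plant or pool beyond the tissue name. The 3 spikelet columns were read as the initials of the tissue name and carry its numbers, so every spikelet value rests on that reading, while the internode columns are numbered 2 to 4 and are called by these numbers. Values are FPKM per gene, fragments per kilobase of transcript scaled to the mapped fragments, and 28736 of 109715 gene rows reached 1 FPKM in at least 2 of the 9 libraries and were tested.

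Floral organs are specified in maize, as in other flowering plants, by combinations of MADS-box transcription factors. Members of the A, B, C, D and E classes mark perianth-like organs, lodicules and stamens, carpels, ovules and the floral state as a whole, and SVP-type members are known mainly from vegetative tissues. Lateral organs acquire an upper and a lower side through YABBY, KANADI and HD-ZIP III factors, and an epidermis through HD-ZIP IV factors. KNOX homeobox genes are expressed in meristems and young stem and are kept silent in developing leaves and other lateral organs. Elongating stem carries auxin downward through PIN and ABCB carriers, divides and expands its cells, and then thickens their walls with cellulose and lignin.

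The tissue labels matched their defining markers for spikelets. All 12 floral organ identity genes that passed the filter were higher in spikelets. Spikelet libraries alone could meet the filter, as for ZAG1 and m1, with at most 0.103 and 0.269 FPKM in stem. Genes so low in stem could not be called lower by the rule given below. The list sum, over all 14 identifiers, does not depend on the filter. It was 1800.2 to 1936 FPKM in the 3 spikelet libraries against 5.74 to 10.8 in the 6 stem libraries. For stem the check was thinner and mostly not met, because of the secondary wall genes cesa10, cesa11, cesa12 and bk2 only cesa10 and cesa12 were tested. In the 9 libraries cesa11 reached at most 0.0192 FPKM and bk2 at most 1.55. Of the tested genes cesa12 was lower in spikelets, at a low stem level, and cesa10 was not called, with values given below. Few genes were called between the internodes, at 3 against 3 libraries, with 38 past the thresholds used below, which is 0.132 percent of the genes tested. The choice of internode still moved the result. Spikelets differed from internode 6-7 alone in 9754 genes and from internode 7-8 alone in 7499. Spikelet library 3 stood apart. It lay at -101 on the first principal component, which held 65.9 percent of the variance, against -152 and -138 for the other two spikelet libraries and 41.7 to 82.2 for the stem libraries. Depth in reads is unknown. A rough relative depth, read from the smallest steps of low values, was 0.415, 0.559 and 0.702 in the spikelet libraries and 0.953 to 1.24 in the other stem libraries, with internode 6-7 library 2 set to 1.

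Between spikelets and stem 8713 genes changed, 3780 higher and 4933 lower in spikelets. A gene was called changed at a limma adjusted p (Benjamini-Hochberg) under 0.05 and a difference of at least 1 on the log2(FPKM + 1) scale. Over all tested genes 30.3 percent were called, 13.2 percent as higher and 17.2 percent as lower, and every count of list members is to be read against these shares. The balance of directions depended on the scaling. The median difference over all genes was -0.27, and median-of-ratios scaling, which moved it to -0.03, gave 4828 higher and 3218 lower genes, or 16.8 and 11.2 percent of 28715 tested, 28.0 percent in all. The share of higher genes among those changed went from 43.4 to 60.005 percent. Of the lower calls 1715 were lost by scaling and of the higher calls 0, and no call kept in both changed direction. Without spikelet library 3 the count was 10066, or 35.5 percent, with 4000 genes (14.1 percent) higher and 6066 (21.4 percent) lower. That library was the lowest of the spikelet libraries for 51.2 percent of the higher genes and the highest of them for 66.7 percent of the lower genes, against 29.8 and 46.8 percent of all tested genes.

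**Figure D1:**
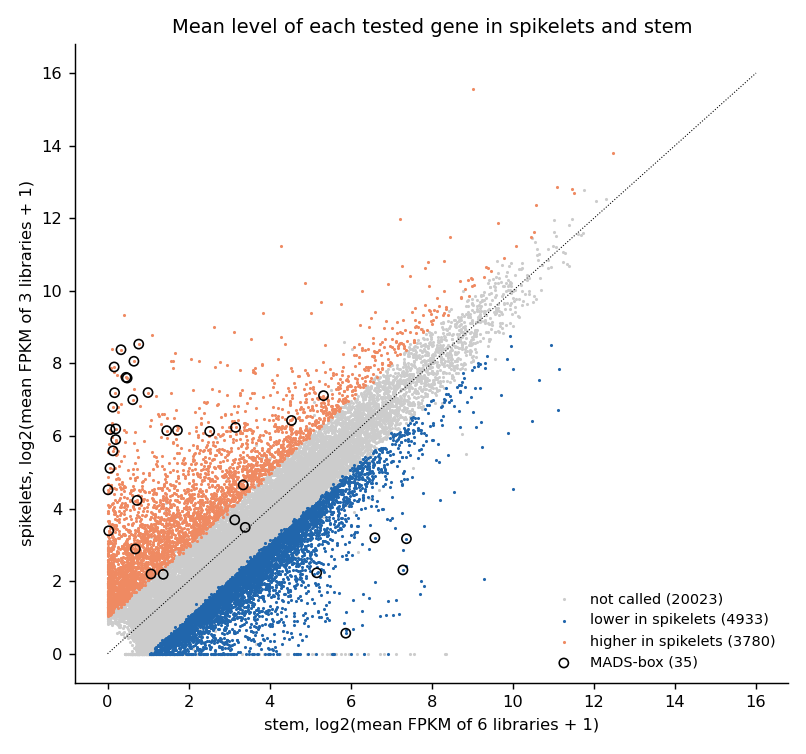
Mean level of the 28736 tested genes in stem (x axis, 6 libraries) and spikelets (y axis, 3 libraries), both as log2(mean FPKM + 1), with called genes coloured and the 35 tested MADS-box genes circled. Most circled genes lie along the left edge, near 0 in stem and high in spikelets, and 5 lie among the genes lower in spikelets.

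The changes reached further upward than downward. Differences of 3 or more on the log2 scale were found for 424 higher and 188 lower genes. The largest increase of a named gene was that of chiB (GRMZM2G005633), a chitinase gene, chitinases being enzymes that cut the chitin of fungal walls. Its level was 727, 678 and 531 FPKM in spikelet libraries 1, 2 and 3 and 0.141 to 0.51 FPKM (median 0.339) in stem, a log2 difference of 8.92 (SE 0.17, adjusted p = 3.91e-10). The next 7 largest increases of genes with a name, down to a log2 difference of 7.02, were all in MADS-box genes. Among the decreases of genes with a name the largest was that of bx1 (GRMZM2G085381), which makes the indole from which benzoxazinoid defence compounds are built, with 4.81, 0.546 and 1.08 FPKM in the spikelet libraries and 144 to 348 FPKM (median 179) in stem (log2 difference -6.24, SE 0.39, adjusted p = 9.34e-07). Further down the list of decreases came MPAO (GRMZM2G034152), a polyamine oxidase, at 4.95, 4.45 and 3.7 against 94.7 to 206 FPKM (median 171), and pcr1 (GRMZM2G084958), a gene of the plant cadmium resistance family, at 15.4, 19.2 and 28 against 67.1 to 477 FPKM (median 432). Only internode 7-8 library 2 had less than 300 FPKM of pcr1. Both were lower in every spikelet library than in every stem library, which the rule that chose the largest changes required.

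A stricter rule asked for at least 10 FPKM in every library of the one organ and less than 1 FPKM in every library of the other. It was met by 90 genes on in spikelets and by 15 on in stem. Of the 90 genes 23 have a name and 14 of these are MADS-box genes, besides the FT-like gene ZCN14, chiB and the chalcone synthase gene c2. DL1 (GRMZM2G088309), the YABBY gene drooping leaf1 known for carpel and midrib development, was also among them at 90.3, 91.7 and 118 FPKM against 0.050 to 0.366 FPKM (median 0.182) in stem, and was chosen for mention after its values were seen. Of the 15 genes on in stem only AUX1 (GRMZM2G000158) has a name, with 0.775, 0.779 and 0.644 FPKM in spikelets and 15.1 to 29.9 FPKM (median 23.6) in stem. The most extreme of the 15, also picked for its values, was GRMZM2G531195, which is not named in the reference and was listed at 0 in all 3 spikelet libraries and at 43.3 to 219 FPKM (median 100.1) in stem. An exact 0 can be a failed estimate, so no fold is given. The single most abundant transcript of spikelets, GRMZM5G846674, is likewise unnamed and was chosen for its level. It stood at 63427, 58209 and 24287 FPKM and at 245 to 907 FPKM (median 463) in stem, and with it the 10 most abundant genes of each spikelet library held 12.1, 11.8 and 7.13 percent of the summed FPKM, against 3.26 to 5.12 percent in stem.

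MADS-box genes separated the organs widely. Of 40 listed identifiers 35 passed the filter, 27 were higher and 5 lower in spikelets, and the median log2 difference was 4.43. The counts were the same after scaling and without spikelet library 3. At least 14 of the 27 stayed under 1 FPKM in every stem library. They passed the filter through spikelets alone and could not be called lower, which adds to the count of higher members and to the median. The same holds below for any list member under 1 FPKM throughout stem. In all 32 changed genes the spikelet and stem libraries did not overlap, which held for 45.5 percent of all tested genes. Of the 8713 changed genes, however, only 1053 overlapped, so such separation is common among called genes, here and below. The E-class type genes, which are needed in every floral organ, included the largest differences of the list. The gene listed as M14, zmm8 and zmm14 (GRMZM2G102161), whose first name is shared by 3 identifiers, stood at 313, 310.4 and 371 FPKM in the spikelet libraries and at 0.0515 to 0.524 FPKM (median 0.235) in stem (log2 difference 8.05, SE 0.17, adjusted p = 5.70e-10). For m6 (GRMZM2G159397), whose other names include zmm7, the values were 393, 349 and 365 FPKM against 0.219 to 1.19 FPKM (median 0.584) (log2 difference 7.79). A second identifier named M14, GRMZM2G099522, held 136, 158 and 142 FPKM against 0 to 0.263 FPKM (median 0.124), and m27 (GRMZM2G129034) 207, 195 and 176 against 0.133 to 0.722 FPKM (median 0.376). In each of these genes the 3 spikelet libraries lay close together and far above every stem library.

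Genes of carpel and ovule identity ranked among them, with m1 and zag2 above m27 and GRMZM2G099522 in log2 difference. The ovule-type genes m1 (GRMZM2G010669), also listed as ov23, and zag2 (GRMZM2G160687), listed first as mpik32a, are known from the developing pistil. Their levels were 229.6, 253 and 231 FPKM for m1, with 0 to 0.269 FPKM (median 0.119) in stem, and 258, 255 and 283 FPKM for zag2, with 0.236 to 0.868 FPKM (median 0.601) in stem. The log2 differences were 7.74 (SE 0.15) and 7.42 (SE 0.17). Both genes, like M14, stayed below 1 FPKM in every stem library. The AGAMOUS-type genes of stamen and carpel identity had lower levels than m1 and zag2 in spikelets and did not overlap with stem either. ZAG1 (GRMZM2G052890), listed first as MADS37, stood at 61.4, 70.4 and 82.2 FPKM against 0 to 0.103 FPKM (median 0.0416), and ZMM2 (GRMZM2G359952), listed first as AGAMOUS, at 133, 114 and 134 against 0.325 to 0.864 FPKM (median 0.466). Bearded-ear, bde1 (GRMZM2G160565), an AGL6-type gene that limits floral meristems, stood at 104, 103 and 124 against 0.0355 to 0.156 FPKM (median 0.0922). These 3 members, and those named in the next paragraph, fall outside the rule for named genes and are given to show the classes.

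The B-class genes of lodicules and stamens varied in level. The PISTILLATA-type genes zmm16 (GRMZM2G110153), m18 (GRMZM5G805387) and zmm29 (GRMZM2G152862) held 58.2, 74.2 and 78.8, 135, 156 and 146 and 38.5, 55 and 48.1 FPKM in the spikelet libraries, in that order of genes. Silky1 (GRMZM2G139073), the APETALA3-type partner, held 5.47, 7.29 and 6.44 FPKM, against 0.221 to 1.34 FPKM (median 0.481) in stem, the smallest difference of the 12 marker genes at 2.23. The APETALA1-type gene zap1 (GRMZM2G148693) stood at 71.2, 72.3 and 66.1 against 0.315 to 3.16 FPKM (median 1.77), and m4 (GRMZM2G032339), of the same wider group, at 85.4, 80.5 and 57.2 against 5.65 to 11 FPKM (median 7.34). Thus m4 was not off in stem, and a few further members had a clear stem level too. The gene listed as m5 and SOC1 (GRMZM2G171365), SOC1 being a flowering-time integrator in Arabidopsis, stood at 77.5, 109 and 68 FPKM in spikelets and 15 to 29.1 FPKM (median 21.5) in stem (log2 difference 1.89). The members that missed the thresholds were MADS47, MADS62 and MADS71, at log2 differences of 0.78, 0.56 and 0.10.

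The 5 MADS-box genes lower in spikelets were MADS34, m20, m19, m26 and m21. The SVP-type genes m19 (GRMZM2G370777), better known as tunicate1 for the pod corn that its misexpression in the ear causes, and m20 (GRMZM2G059102) stood at 8.19, 7.53 and 8.28 and 5.68, 3.38 and 2.81 FPKM in the spikelet libraries. In stem they ranged over 126 to 199.7 FPKM (median 175) and 135 to 169 FPKM (median 160.1), which gave log2 differences of -4.19 (SE 0.17) and -5.02 (SE 0.18). MADS34 (GRMZM2G137510) was lowest in spikelets, with 1.04, 0.137 and 0.263 FPKM against 48.2 to 68.9 FPKM (median 59) and a difference of -5.35 (SE 0.20, adjusted p = 2.42e-08). The lowest stem value among the 5 genes was 28.05 FPKM, for m21 (GRMZM5G814279), against a highest spikelet value of 9.34, for m26 (GRMZM2G046885).

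**Figure D2:**
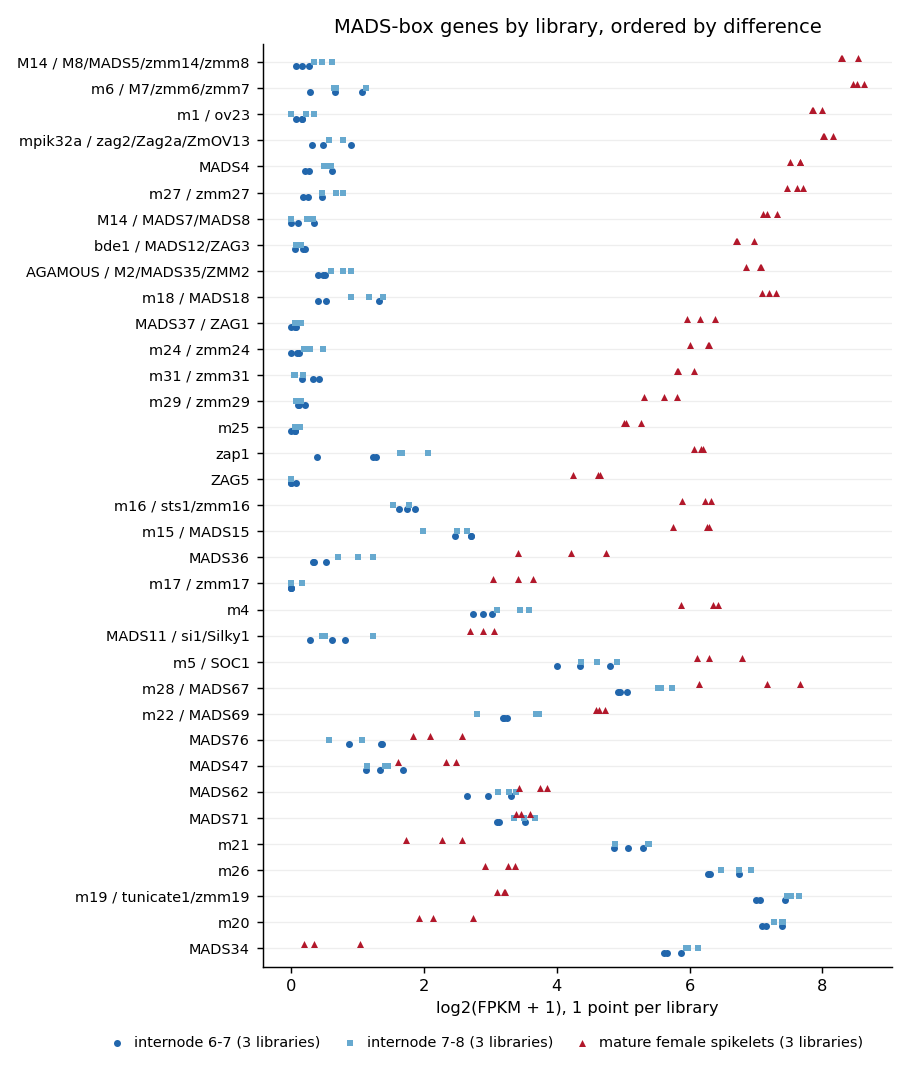
Level of the 35 tested MADS-box genes as log2(FPKM + 1) on the x axis, with 1 point per library for spikelets (triangles), internode 6-7 (circles) and internode 7-8 (squares). The genes are ordered by their difference, from M14 at 8.05 to MADS34 at -5.35, and in the 32 called genes the triangles do not overlap the stem points.

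On a list of flowering signal genes 9 of 20 identifiers were tested, 3 were higher and 4 lower, with or without scaling. Of these, 6 belong to the FT and TFL1 family (names beginning with ZCN), small proteins that advance or hold back flowering, with 2 higher and 3 lower. The FT-like ZCN14 (GRMZM2G373928) stood at 125, 145 and 80.1 FPKM in spikelets and 0.104 to 0.465 FPKM (median 0.177) in stem, a log2 difference of 6.52 (SE 0.21). The TFL1-like ZCN3 (GRMZM2G338454) behaved in the opposite way, with 2.37, 0.846 and 0.634 FPKM in spikelets and 47.3 to 93.9 FPKM (median 81.2) in stem (log2 difference -5.13, SE 0.27). The flowering-time bZIP gene DLF1 (GRMZM2G067921), which acts with FT-like proteins, was lower too, at 0.349, 0.0857 and 0.191 against 4.87 to 10.8 FPKM (median 7.08). All of these separated the organs in every library.

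The AP2, LEAFY and SBP genes that shape inflorescences and bracts were divided, with 6 higher and 8 lower of 27 tested and a median of -0.20. With a filter at 5 FPKM the count of higher members was 3. The SBP gene tga1 (GRMZM2G101511), teosinte glume architecture1, which controls the hardness and size of the glume around the kernel, stood at 18.6, 29.3 and 29.3 FPKM in spikelets and 1.19 to 2.73 FPKM (median 1.54) in stem (log2 difference 3.28, SE 0.23). Liguleless1, lg1 (GRMZM2G036297), which sets the boundary of blade and sheath in leaves, stood at 4.54, 4.11 and 4.98 FPKM and was near the limit in stem at 0 to 0.276 FPKM (median 0.0678). The gene ub2 (GRMZM2G160917), unbranched2, which limits branching and kernel rows, was lower in spikelets, at 3.24, 6.6 and 6.98 against 27.2 to 49.3 FPKM (median 32.5) (log2 difference -2.44).

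YABBY and KANADI genes, which act in the upper and lower sides of lateral organs, were higher in spikelets. All 9 tested members of the list were called higher, of 10 listed, with a median log2 difference of 3.02, and no member's libraries overlapped between organs. DL1, given above, is not on this list. Within it, yab9 (GRMZM2G074543) and yab10 (GRMZM2G167824) had the largest differences, 4.57 (SE 0.23) and 3.65 (SE 0.32). Expression of yab9 was 35, 25.3 and 36.6 FPKM in spikelets and 0 to 1.05 FPKM (median 0.341) in stem. The KANADI gene mwp1 (GRMZM2G082264), milkweed pod1, had the smallest, at 4.7, 5.74 and 7.23 FPKM against 1.51 to 2.43 FPKM (median 2.06) (log2 difference 1.18).

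Of 12 HD-ZIP III and IV genes 8 were higher in spikelets and 1 lower. The IV class, listed as ocl for outer cell layer and known from the epidermis, supplied 7 of the 8. The gene ocl1 (GRMZM2G026643) stood at 19.5, 20.5 and 28.2 FPKM against 2.93 to 4.22 FPKM (median 3.38) (log2 difference 2.37, SE 0.18). In the class III gene phb3 (GRMZM2G410710), of the PHABULOSA type that marks the upper side of organs, the values were 29.7, 31.1 and 33.8 against 2.09 to 7.72 FPKM (median 4.15). Its relatives phb1 and phb2 did not pass, at log2 differences of -0.32 and -0.12, the latter changing sign after scaling at 0.16, and rld1 (GRMZM2G109987), rolled leaf1, was lower in spikelets, by a difference of -1.18 that fell short of the threshold after scaling at -0.91. Without spikelet library 3, in which several ocl genes were highest, the count of higher members was 5. The gene listed as HDZIV8_OCL8 (GRMZM2G122897), for example, stood at 4.2, 6.91 and 16.1 FPKM.

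Genes of the outer surface followed. Of 11 lipid transfer and cuticle genes 6 were higher in spikelets and none lower, and after scaling 7 were. LTP3 (GRMZM2G126397), a lipid transfer protein gene, was among the most abundant transcripts of the organ, at 3748, 4246 and 4160.5 FPKM against 102 to 223 FPKM (median 139) in stem (log2 difference 4.82, SE 0.22). The phospholipid transfer protein gene plt2 (GRMZM2G010868) was uneven among spikelet libraries, at 698, 292 and 236 FPKM, but above every stem library, at 8.41 to 14.5 FPKM (median 10.2). For plt1 (GRMZM2G101958) the values were 169, 115 and 119 against 11.7 to 14.6 FPKM (median 13.3).

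The regulators of stem growth pointed the other way. Of 12 tested KNOX and WOX homeobox genes 6 were lower in spikelets and 1 higher, also after scaling. The median log2 difference was -1.05, and 0.12 after scaling over the genes that then passed the filter. Knotted1, kn1 (GRMZM2G017087), the founding KNOX gene, was still present in spikelets at 28.5, 69.1 and 46.7 FPKM but stood at 149 to 307 FPKM (median 184) in stem (log2 difference -2.10, SE 0.29, adjusted p = 2.07e-04). The related gene gnarley1 (GRMZM2G452178), also listed as knox4, stood at 5.42, 7.96 and 7.84 FPKM in spikelets and 22.4 to 53.3 FPKM (median 35.7) in stem. Both KNOX genes were lower in every spikelet library than in any stem library. The member higher in spikelets was a WOX gene, wox9C (GRMZM2G409881), at 2.84, 3.91 and 5.97 FPKM with a stem median of 0. As this is a bulk measurement, fewer cells of a type and less RNA per cell cannot be told apart, here or below.

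Growth-regulating factors, which promote cell proliferation in growing organs, were lower in 12 of 18 cases and higher in 1, with a median of -1.46, and in 10 and 2 cases after scaling. GRF9 (GRMZM2G124566), a name shared by 2 identifiers, stood at 0.415, 0.469 and 0.718 FPKM in spikelets and 8.65 to 11.9 FPKM (median 11) in stem (log2 difference -2.93, SE 0.16). Its namesake GRMZM5G893117 stood at 0.175, 1.19 and 0.914 against 5.74 to 10.4 FPKM (median 7.91). The exception was GRF11 (GRMZM2G067743), at 11.7, 17 and 11.7 FPKM against 1.89 to 4.58 FPKM (median 3.5) and a log2 difference of 1.76.

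Auxin genes were called lower more often than higher in spikelets. Of 9 tested genes of auxin transport and synthesis 6 were lower and 2 higher (5 and 2 after scaling). The efflux carrier genes PIN1a (GRMZM2G098643) and PIN1d (GRMZM2G171702), whose proteins move auxin out of cells at one side, stood at 1.71, 3.72 and 4.75 and 1.1, 3.08 and 2.7 FPKM in the spikelet libraries. Their stem levels were 37.7 to 52.2 FPKM (median 42.9) and 25.2 to 49.2 FPKM (median 35.6), and the log2 differences -3.40 (SE 0.22) and -3.54 (SE 0.24). The ABCB-type carrier br2 (GRMZM2G315375), brachytic2, whose loss shortens the lower stalk, stood at 8.18, 7.92 and 15.2 against 40.5 to 69.5 FPKM (median 55.6). In contrast PIN10a (GRMZM2G126260) was higher in spikelets, at 9.5, 12.7 and 23.4 against 1.03 to 2.26 FPKM (median 1.27) (log2 difference 2.63), as was PIN5c (GRMZM2G040911), at 4.6, 8.11 and 8.88 against 0.723 to 1.88 FPKM (median 1.07). The carriers thus differed in direction by member.

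Of 16 auxin response factors, the DNA-binding end of the auxin pathway, 7 were lower and 1 higher, and of 16 Aux/IAA genes, which encode the repressors that auxin removes, likewise 7 and 1. After scaling the counts were 6 and 1, and 6 and 2. ARF23 (GRMZM2G441325) stood at 2.21, 3.78 and 6.24 FPKM in spikelets and 30.8 to 45.1 FPKM (median 37.2) in stem (log2 difference -2.99, SE 0.24), and ARF30 (GRMZM2G475882) at 4.38, 7.15 and 10.2 against 36.4 to 55.2 FPKM (median 41.3). Among the Aux/IAA genes IAA12 (GRMZM2G128421) stood at 2.13, 2.04 and 1.61 against 18 to 31.1 FPKM (median 24.7) (log2 difference -3.12), while AUX18 (GRMZM2G104176) was higher at 48.2, 43.5 and 47.3 against 3.05 to 7.16 FPKM (median 4.18) (log2 difference 3.08). In ARF23 and ARF30, as in PIN1a and MCM7 below, spikelet library 3 was the highest of the spikelet libraries and still below every stem library.

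Gibberellin genes, known for stem elongation, were lower in 3 of 6 cases and higher in none. The gibberellin synthesis genes Dwarf1 (GRMZM2G036340) and an1 (GRMZM2G081554), anther ear1, stood at 1.55, 2.55 and 1.74 and 0.374, 0.859 and 1.91 FPKM, against 4.45 to 17.9 FPKM (median 10.4) and 2.98 to 7.08 FPKM (median 4.73) in stem. Dwarf1 also differed between the internodes, and missed the threshold with a replicate block (adjusted p = 0.053). The third, the DELLA repressor gene D8 (GRMZM2G144744), had a log2 difference of -1.23 that fell short after scaling at -0.95, where 2 were lower and 1 higher. Cytokinin genes were split, with 10 higher and 5 lower of 27, and 10 and 3 after scaling. The response regulator gene crr1 (GRMZM2G040736) stood at 27.2, 36.5 and 23 FPKM against 1.32 to 4.61 FPKM (median 2.18) (log2 difference 3.07, SE 0.31), and CKX4 (GRMZM5G817173), a cytokinin oxidase that degrades the hormone, at 6.94, 3.87 and 6.94 against 0.182 to 0.913 FPKM (median 0.295). The receptor kinase gene HK1b2 (GRMZM5G833140) was lower, at 1.66, 0.74 and 1.13 against 7.23 to 15.3 FPKM (median 11.1).

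**Figure D3:**
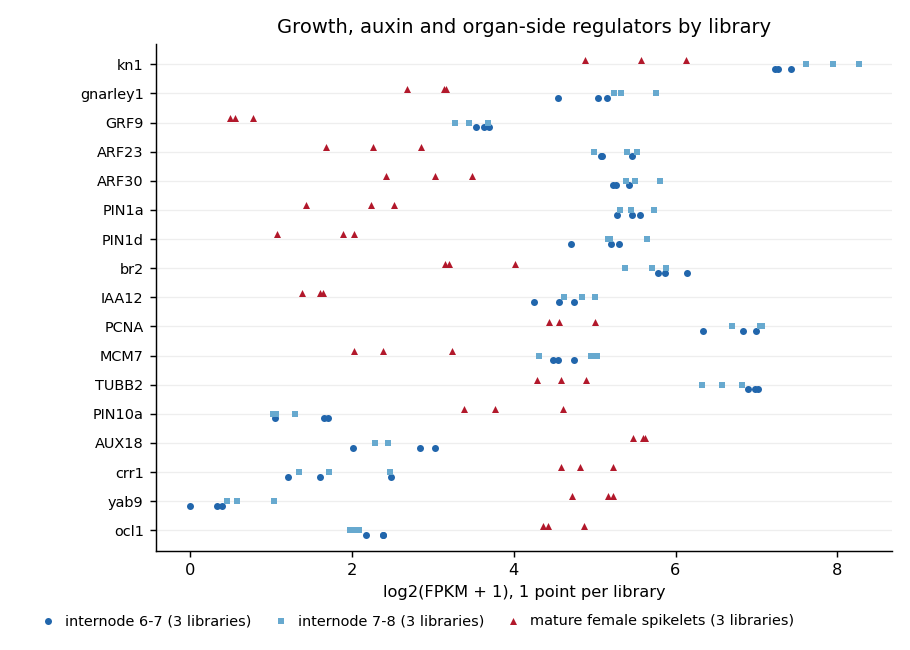
Level of 17 genes of growth, cell division, auxin and organ sides as log2(FPKM + 1) on the x axis, with 1 point per library for spikelets (triangles), internode 6-7 (circles) and internode 7-8 (squares). The spikelet points lie below all stem points for the genes from kn1 to TUBB2 and above them for PIN10a, AUX18, crr1, yab9 and ocl1.

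Genes of DNA replication and cell division were lower in spikelets in 12 of 25 cases and higher in none, with a median of -0.96, and lower in 9 and higher in 2 after scaling. The replication clamp gene PCNA (GRMZM2G030523) stood at 20.6, 22.6 and 31.1 FPKM against 80.1 to 133 FPKM (median 119.7) in stem (log2 difference -2.17, SE 0.19, adjusted p = 9.83e-06). MCM7 (GRMZM2G065205), of the replicative helicase, stood at 3.09, 4.21 and 8.4 against 18.9 to 31.6 FPKM (median 24.1). By limma 0 of 9 histone genes were called, with a median of 0.03. For 3 of them the unadjusted p, and also the adjusted p, was under 0.05 at a log2 difference short of 1. Of these his2a1 (GRMZM2G305046), a core histone gene, had the lower level in spikelets, at 214, 260.1 and 281 FPKM against 341 to 574 FPKM (median 400.2) (-0.73), and the other two had the higher.

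Cytoskeleton and chaperone genes were also called lower more often than higher, but the summed chaperone level was higher in spikelets, by a narrow margin. The 16 listed heat shock protein identifiers summed to 1801, 2022 and 1904 FPKM in the spikelet libraries and to 1451 to 1766 FPKM in stem. The summed FPKM of all genes was higher in spikelets too, at 984590 to 1133400 against 915010 to 980170 in stem. For the 18 tubulin and actin identifiers the sums overlapped, at 7905, 7205 and 6829 against 6484 to 9419 FPKM. Of 16 tubulin and actin genes 9 were lower and 1 higher (7 and 1 after scaling), among them the tubulin gene TUBB2 (GRMZM2G334899), at 23, 18.6 and 28.8 FPKM against 79.6 to 128 FPKM (median 115) (log2 difference -2.18, SE 0.19). Of 13 heat shock protein and chaperone genes 8 were lower and 1 higher, and 6 and 2 after scaling, but only 4 of the 8 had no overlap between the organs. The chaperonin gene CPN60I (GRMZM2G458208) was among them at 8.87, 8.81 and 15.9 against 42.3 to 67.8 FPKM (median 54.1). By contrast BiP1, listed as b-70 (GRMZM2G114793), the folding helper of the endoplasmic reticulum, was low in spikelet libraries 1 and 2 only, at 22.2, 18 and 67.8 FPKM against 67.2 to 156 FPKM (median 109). Of 30 ribosomal protein genes 1 was lower and 0 were higher, with a median of -0.23, close to that of all genes.

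Wall genes differed by group. Of 14 expansin genes, whose proteins loosen walls during growth, 13 were higher in spikelets and none lower, with a median of 2.12, and the counts were 13 after scaling and 12 without spikelet library 3. The α-expansin genes expA3 (GRMZM2G074585) and expa1 (GRMZM2G339122) stood at 14.4, 8.72 and 7.16 and 92, 187 and 242 FPKM in the spikelet libraries. In stem they were at 0 to 0.209 FPKM (median 0.118) and 15.9 to 30.002 FPKM (median 23.6), which gave differences of 3.28 (SE 0.21) and 2.76 (SE 0.29). Of the 13 genes 4 belong to the β-expansins of pollen, described with the pollen markers below, and 9 do not. The hydroxyproline-rich wall protein gene HRGP (GRMZM2G168651), a name shared by 2 identifiers, reached 1637, 677 and 2461 FPKM against 179 to 281 FPKM (median 224) in stem. It was 1 of 4 higher genes among 6 arabinogalactan, proline-rich and glycine-rich wall proteins, and none was lower.

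Cellulose synthase genes of the primary wall were lower in 3 of 6 cases and higher in none, and in 2 after scaling. CesA-6 (GRMZM2G113137) stood at 17, 11.8 and 24.5 FPKM against 36.8 to 78.1 FPKM (median 59.5) (log2 difference -1.69, SE 0.28). Among 9 genes of secondary wall cellulose and the COBRA family 2 were higher and 2 lower. CesA12 (GRMZM2G142898) stood at 0.478, 0.528 and 1.26 against 3.16 to 4.9 FPKM (median 4.15), while cesa10 (GRMZM2G445905) did not reach the difference asked for, at 36.9, 34.1 and 30.7 against 55.7 to 74.1 FPKM (median 64.2) and -0.92. The brittle stalk gene bk2 did not pass the filter on low values.

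The lignin and phenylpropanoid genes were lower in 4 and higher in 1 of 11 cases, with and without scaling. The lower genes included the cinnamoyl-CoA reductase genes of the list, whose enzymes take the first committed step to lignin monomers. The gene cncr1 (GRMZM2G131205), listed first as CCR, stood at 2.15, 2.47 and 3.36 FPKM against 10.8 to 76.1 FPKM (median 37.4) in stem (log2 difference -3.38, SE 0.50), and cncr2 (GRMZM2G131836), listed first as ccr2, at 0.126, 0 and 0.0711 against 2.3 to 6.69 FPKM (median 3.53). The exception was cad1 (GRMZM2G046070), a cinnamyl alcohol dehydrogenase, at 77.1, 70.8 and 61 against 5.04 to 13.2 FPKM (median 8.47) (log2 difference 2.92). Of 6 laccases and peroxidases, which can polymerise lignin, 3 were lower and 1 higher. The laccase gene lac5 (GRMZM2G367668) stood at 0.465, 0.0704 and 0.375 against 2.81 to 7.75 FPKM (median 4.53), and the peroxidase gene POD1 (GRMZM2G137839) at 1238, 1436 and 1054 against 305 to 520.3 FPKM (median 438).

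**Figure D4:**
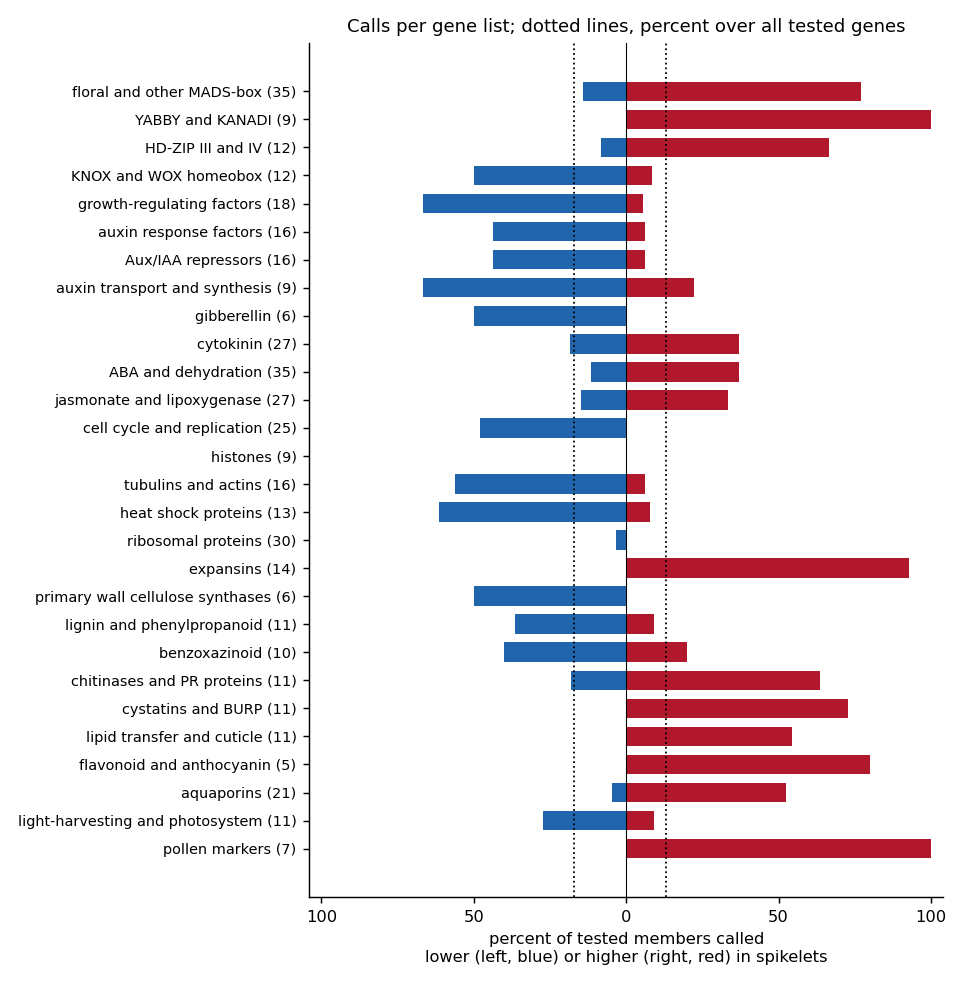
Percent of tested members of 28 gene lists (number tested in parentheses) called lower (bars to the left) or higher (bars to the right) in spikelets, with dotted lines at the 17.2 and 13.2 percent of all tested genes. The YABBY and KANADI, expansin and pollen lists lie almost wholly to the right, and the growth-regulating factor, auxin, cell cycle, tubulin and chaperone lists mostly to the left.

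Defence genes differed by pathway. The benzoxazinoid genes were lower in 4 of 10 cases and higher in 2. Of the cytochrome P450 genes of the next steps bx2 and BX4 were lower, while BX3 (GRMZM2G167549) and BX5 (GRMZM2G063756) were not called, at log2 differences of -0.60 and -0.57. The levels of bx2 (GRMZM2G085661) were 13.5, 14 and 34.1 FPKM against 185 to 250.4 FPKM (median 222) (log2 difference -3.49, SE 0.25) and those of BX4 (GRMZM2G172491) 17.5, 18.9 and 35.3 against 68.9 to 84.6 FPKM (median 74.8). The glucosidase gene glu1 (GRMZM2G016890), whose enzyme releases the toxic compounds from their stored sugar forms, was higher, at 1059.5, 719 and 1617 against 87.8 to 487 FPKM (median 187) (log2 difference 2.36, SE 0.48). The other higher gene, glu2 (GRMZM2G008247), is also a glucosidase gene, at 7.18, 0.569 and 2.9 against 0 to 0.372 FPKM (median 0.112), and did not pass the filter without spikelet library 1 or 3. The fourth lower gene, bx9 (GRMZM2G161335), encodes a glucosyltransferase that stores the compounds, at 55.6, 39.5 and 62.9 against 119 to 251 FPKM (median 164).

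Chitinases and pathogenesis-related proteins were higher in 7 of 11 cases and lower in 2, with 5 higher when spikelet library 3 was left out. After chiB, PR-5 (GRMZM2G402631), of the thaumatin-like family, stood at 88.1, 52.5 and 58.7 FPKM against 2.24 to 5.77 FPKM (median 4.42), and chiA (GRMZM2G051943), a second chitinase, at 11.1, 2.34 and 16.1 against 0 to 0.323 FPKM (median 0.163). PR10 (GRMZM2G112524) was lower, at 0.177, 0.256 and 0.192 against 8.88 to 14.8 FPKM (median 12.4) (log2 difference -3.42). Of 11 cystatin and BURP-domain genes, cystatins being inhibitors of cysteine proteases, 8 were higher and none lower. The cystatin gene cc7 (GRMZM2G148925) stood at 305, 239 and 238 against 29.6 to 56.6 FPKM (median 36.6). Terpene synthesis genes were lower in 3 of 11 cases and higher in none, with the sesquiterpene gene EDS (GRMZM2G010356), eudesmanediol synthase, at 2.64, 1.41 and 0.987 against 13.2 to 67.3 FPKM (median 48.2) (log2 difference -3.88).

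Jasmonate and lipoxygenase genes were higher in 9 and lower in 4 of 27 cases, but in 7 and 6 without spikelet library 3. Of the 9 higher genes 7 had no overlap between the organs. The lipoxygenase gene lox3 (GRMZM2G109130) stood at 55.9, 25.7 and 67.9 FPKM against 2.4 to 6.25 FPKM (median 3.17) and the allene oxide cyclase gene aoc1 (GRMZM2G077316) at 178, 185 and 147 against 32.2 to 52.9 FPKM (median 39.2). The allene oxide synthase gene aos2 (GRMZM2G002178), which acts just before the cyclase, was lower, at 24.5, 12.6 and 32.2 against 73.6 to 208 FPKM (median 107) (log2 difference -2.38). Of 35 genes of abscisic acid and dehydration 13 were higher and 4 lower (16 and 4 after scaling). The highest rise was that of asr1 (GRMZM2G136910), listed first as aba1 and named for abscisic acid, stress and ripening, at 439.7, 294 and 201 against 0.757 to 3.66 FPKM (median 2.09) (log2 difference 6.61, SE 0.32). The dehydrin gene rab17 (GRMZM2G079440), listed first as dhn1, which protects drying tissues, ranged widely over the spikelet libraries, at 96.9, 24.6 and 9.38 FPKM, above 0.0264 to 0.256 FPKM (median 0.146) in stem.

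Pigment, water and sugar genes added further contrasts. Of 12 flavonoid identifiers 5 were tested, 4 were higher and none lower. Chalcone isomerase, chi1 (GRMZM2G155329), listed first as CHI, stood at 769, 626 and 601 FPKM against 8.88 to 18 FPKM (median 13) (log2 difference 5.60, SE 0.24), and chalcone synthase, c2 (GRMZM2G422750), which supplies its substrate, at 20.2, 11.1 and 19 against 0.411 to 0.969 FPKM (median 0.80). Aquaporins were higher in 11 of 21 cases and lower in 1, and in 14 and 1 after scaling. The plasma membrane channel gene PIP2-6 (GRMZM2G047368) stood at 35.2, 81.5 and 122 FPKM against 0.517 to 2.33 FPKM (median 1.42) (log2 difference 4.90) and NIP1-1 (GRMZM2G041980) at 303, 225 and 217 against 9.33 to 18.3 FPKM (median 12.6). The exception NIP2-2 (GRMZM2G137108) stood at 0.298, 0 and 0.0565 against 2.25 to 23.1 FPKM (median 6.64).

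Sucrose genes were higher in 5 and lower in 2 of 15 cases. The sucrose synthase gene sus1 (GRMZM2G152908), listed first as ss2, which splits sucrose in sink tissue, was abundant in stem at 815 to 3624 FPKM (median 2139.7) and lower in spikelets at 193, 152 and 345 FPKM (log2 difference -3.23, SE 0.43). The cell wall invertase genes incw1 (GRMZM2G139300) and mn1 (GRMZM2G119689), listed first as Incw, split sucrose outside the cell. They stood at 7.1, 4.57 and 4.97 and 2.5, 1.63 and 5.29 FPKM in spikelets, and at 0.231 to 0.947 FPKM (median 0.511) and 0 to 0.176 FPKM (median 0.0159) in stem. Light-harvesting and photosystem genes were lower in 3 and higher in 1 of 11 cases, but the stem libraries were uneven. Over 10 leaf marker identifiers the summed level was 232 FPKM in internode 7-8 library 2, 749.9 in library 3 and 1183 to 1510 in the other 4 stem libraries, against 263 to 298 in spikelets. The leaf marker pep1 (GRMZM2G083841), a C4 carboxylase gene, did not pass the filter, with at most 0.0871 FPKM in the 9 libraries. Without internode 7-8 library 2, 5 of the 11 light-harvesting and photosystem genes were lower. For lhcb7 (GRMZM2G402936), a light-harvesting protein gene, the values were 80.8, 87.1 and 79.3 FPKM against 113 to 889 FPKM (median 682).

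Pollen-type genes were found in the spikelet libraries at uneven levels. All 7 pollen markers tested, namely 3 profilins that bind actin and 4 β-expansins that loosen the walls of the stigma and silk, were higher in spikelets. The profilin prf3 (GRMZM5G876285), listed first as profilin and matching 2 reference genes, stood at 43.4, 25.9 and 6.5 FPKM against 0.909 to 3.82 FPKM (median 2.55) (log2 difference 2.70, SE 0.50, adjusted p = 0.00117). The β-expansin EXPB1 (GRMZM2G146551) stood at 25.7, 17 and 4.56 against 0.679 to 2.68 FPKM (median 1.46). Summed over the 7 genes the level was 176, 105 and 30.4 FPKM in spikelet libraries 1, 2 and 3, and 4.82 to 17.7 in the stem libraries.

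The spikelet libraries kept the same order for further genes, most of them known from pollen. A list of 4 pectin enzyme genes, the actin-depolymerising factor genes ABP1 and ABP2 and the gene MST2 was drawn up after its values had been seen and is only described. In all 7 pollen markers library 1 was the highest and library 3 the lowest of the spikelet libraries, an order shown by 35.2 percent of the genes higher in spikelets and 16.9 percent of all tested genes. The 7 further genes had it too, but were chosen with it in view, so nothing is read from them. In the 7 pollen markers the ratio of library 1 to library 3 ran from 3.89 to 7.37. The pectin methylesterase gene pme1 (GRMZM2G125356), listed first as C5, held 30.2, 14.1 and 4.04 FPKM against 0.927 to 3.74 FPKM (median 2.03). The 14 genes together account for 4 of the 13 higher expansins and 5 of 5 higher genes among 10 profilins and actin-depolymerising factors. They also account for 4 of 4 higher genes among 6 pectin and other wall carbohydrate enzymes, and their part in those results was not tested. The decrease among the profilins was that of GRMZM2G140455, named Profilin only, at 2.68, 1.45 and 1.62 FPKM in spikelets and 19.8 to 171 FPKM (median 82.2) in stem (log2 difference -4.62, SE 0.55).

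**Figure D5:**
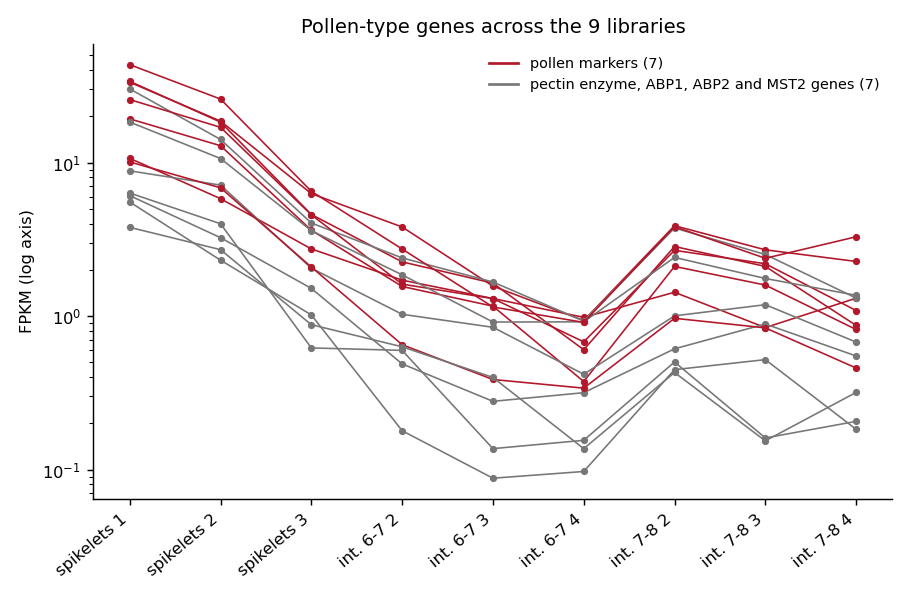
Level in FPKM (log axis) of 7 pollen markers (red) and 7 further pectin enzyme, actin-depolymerising factor and MST2 genes (grey) in each of the 9 libraries, with a line joining the values of a gene. Every gene is highest in spikelet library 1 and lower in libraries 2 and 3, and all lie below 4 FPKM in the stem libraries.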

How the data were processed

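The deposited table holds FPKM values that the authors computed per gene and library from poly(A)-selected, strand-specific libraries. The submitters' processing notes list Cufflinks 2.1.1, TopHat2 2.0.8b and Bowtie2 2.1.0. The sources used here do not give the build, the gene models, the settings or the use of strand in counting. Paralogs, overlapping and antisense genes are therefore uncertain. Of 68 value columns 57 were not used, because their headers could not be tied to a labelled tissue, and 5 rows lacking a value were left out. Gene names were looked up by synonym in RefSeq's gene table (Zm-B73-REFERENCE-NAM-5.0), with 15735 tested genes matched, 2179 named and 423 matching more than 1 reference gene.

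Genes with at least 1 FPKM in 2 or more of the 9 libraries were tested on log2(FPKM + 1) with limma 3.58.1 in R 4.3.3 (mean-variance trend, spikelets n = 3 against stem n = 6, two-sided, Benjamini-Hochberg adjustment over all tested genes), a scale that understates changes of low genes. The fit was tested on simulated data. Nothing in the labels ties libraries to separate plants, so p-values measure the spread between libraries, which may be technical. Read depth is unknown, and no interval for counting error is given.

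Named genes were the 8 largest changes in each direction among called genes whose spikelet and stem libraries do not overlap. Added to them were up to 3 changed members of each list in each direction, and members given for context. The comparison, the members and the gene lists were chosen with earlier results of these data known. The floral, leaf and further pollen lists were added later, and identifiers were removed from lists where a shared name belongs to another gene. Alternatives were another pseudocount, other filters, scaling, each internode alone, tissue means, added meristem libraries, a replicate block and leaving out each library. A gene that the naming rule selected is not reported here.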

Additional observations from a re-analysis of the deposited data

Results flagged for a closer look

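In 6 of 130 named genes, or 4.62 percent, 1 stem library stood apart from the other 5 by Dixon's criterion, which chance meets in about 1 of 20 groups. Over all tested genes the share was 7.31 percent, and the library that most often stood above the others was internode 6-7 library 2, in 570 genes, against 284 for internode 7-8 library 4. Among the 6 named genes the latter was highest in 4. Its level was 6.69 FPKM for ccr2 (GRMZM2G131836), with 2.3 to 3.69 in the others, and 49.3 for ub2 (GRMZM2G160917), with 27.2 to 35.4. It was 3.11 for acco20 (GRMZM2G126732), with 0.448 to 1.32, and 0.0437 for wox9C (GRMZM2G409881), which was listed at 0 in the others. Internode 7-8 library 3 was highest for CKX4 (GRMZM5G817173) at 0.913, with 0.182 to 0.413 in the others. Internode 7-8 library 2 was lowest for pcr1 (GRMZM2G084958) at 67.1, with 368 to 477 in the others. The spikelet and stem libraries did not overlap in any of the 6 genes, which for pcr1 was a condition of its choice.

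The gibberellin gene Dwarf1 (GRMZM2G036340) differed between the internodes themselves. It stood at 15.3, 17.9 and 15 FPKM in internode 6-7 and at 5.92, 4.91 and 4.45 in internode 7-8, a limma log2 difference of -1.49 (adjusted p = 0.035), and was lower in spikelets than in either.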

How the results depend on the processing

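The number of changed genes, 8713, lay between 6695 (filter at 5 FPKM) and 11265 (pseudocount 0.1) over the alternatives that kept all libraries, and between 7439 and 10066 when 1 library was left out. The share of higher genes among those changed, 43.4 percent, was less stable. It was 60.005 percent after median-of-ratios scaling, where 3218 genes were lower, and 57.7 percent after scaling without spikelet library 3, an alternative chosen after seeing the data. It was 39.8 percent with the filter at 5 FPKM, 39.3 with the pseudocount of 0.1, 39.3 against internode 6-7 alone, 47.6 against internode 7-8 alone, and 39.7 to 46.9 when single libraries were left out. Same-numbered libraries did not clearly deviate together (r of -0.16 to 0.21), and spikelets share only 2 numbers with each internode. The internodes share all their numbers, 2, 3 and 4, at r of -0.13, 0.21 and -0.12. With so few libraries per tissue these values cannot exclude that same-numbered libraries are paired. With a replicate block 7728 genes changed, 42.3 percent of them higher.

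Of 121 named genes called, 3 lost the call under 1 or more of 20 alternatives, namely rld1 and D8 after scaling, rld1 after scaling without spikelet library 3, and D8 and Dwarf1 with the replicate block. A further 7, among them glu2, could not be followed through every alternative, because they did not pass the filter at 5 FPKM, and glu2 also not without spikelet library 1 or 3. The sign turned in 3 genes that were not called. For phb2 (GRMZM2G107114) the difference became 0.16 after scaling, 0.19 after scaling without spikelet library 3 and 0.015 with the block. For phb1 (GRMZM2G134955) it became 0.051 after scaling without that library, and for MADS71 (GRMZM2G110582) -0.031 with the block and against internode 7-8 alone. The cause was not tested. Read depth is unknown, and an exact 0 may be a failed estimate.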

Other observations

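Further transcription factor families differed in balance. Of 20 tested NAC factors 6 were higher in spikelets and none lower, with a median of -0.13, so that most members moved little. Of the identifiers sharing the name NAC1, GRMZM2G347043 stood at 81.8, 64.8 and 149.9 FPKM in the spikelet libraries and 1.89 to 6.03 FPKM (median 4.21) in stem (log2 difference 4.22, SE 0.32). NAC20 (GRMZM2G180328) stood at 15.2, 8.79 and 9.51 against 0 to 0.0621 FPKM (median 0). Among 28 AP2/EREBP factors 12 were higher and 3 lower (16 and 3 after scaling), led by EREB179 (GRMZM2G129674) at 10.2, 20.3 and 19.8 against 0.0482 to 0.166 FPKM (median 0.091). Of 6 LOB domain factors 4 were higher and 1 lower. The gene listed as AS2 and IG1 (GRMZM2G118250), indeterminate gametophyte1, which limits growth of the embryo sac, stood at 7.02, 11.2 and 11.1 against 0 to 0.552 FPKM (median 0.0741) and its paralog ial1 (GRMZM2G133806) at 9.78, 12.6 and 10.6 against 0 to 0.171 FPKM (median 0.0943). The bHLH factors were divided, with 7 higher and 10 lower of 35. In bHLH123 (GRMZM2G369629) the values were 29.9, 11.2 and 9.72 against 0.0902 to 0.655 FPKM (median 0.363), and in bHLH114 (GRMZM2G095899) 0.277, 0 and 0.079 against 9.6 to 21.6 FPKM (median 13.6). Spikelet and stem libraries did not overlap in any of these named factors.

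Several enzyme families showed members in opposite directions. Of 21 glutathione transferases, which attach glutathione to toxic compounds, 7 were higher and 6 lower in spikelets. The gene gst28 (GRMZM2G146475) stood at 226, 255 and 176 FPKM against 14.5 to 29.2 FPKM (median 22.9) (log2 difference 3.25) and gst11 (GRMZM2G119499) at 19.5, 57.4 and 41.9 against 209 to 326 FPKM (median 274) (log2 difference -2.87). Among 16 genes of nitrogen metabolism 4 were higher and 2 lower. Cytosolic glutamine synthetases, which bind ammonium into glutamine, were in both groups, with gln2 (GRMZM2G024104) at 83.4, 69.6 and 75.1 against 11.1 to 22.2 FPKM (median 15.9) and gln5 (GRMZM2G036464), listed first as Gln1-4, at 73.5, 97.5 and 134 against 234 to 613 FPKM (median 403). Of 5 ethylene genes 3 were higher and none lower, and 2 were higher without spikelet library 3. The gene acco20 (GRMZM2G126732), of an oxidase that makes ethylene, stood at 42.9, 43.6 and 22.5 against 0.448 to 3.11 FPKM (median 1.11). Of 16 starch genes 3 were higher and none lower, with a median of 0.01.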
